A study of Mus musculus with 8 samples.

Results

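The RNAs of the Aurora kinases and their partners in chromosome segregation were followed in mouse oocytes. The set was given by symbol and held *Aurka*, *Aurkb*, *Aurkc*, *Tpx2*, *Bora*, *Incenp*, *Birc5*, *Cdca8*, *Plk1* and *Haspin*. All 10 were listed in every library, among 15962 genes listed in both sets of tables, and all 10 passed the filter on low values that left 13968 genes for testing.

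Polyadenylated RNA was measured by Smart-seq2 in 8 libraries, 2 per group, with 15 oocytes of ICR mice per library. GV oocytes (treatment label WT) rest in prophase of meiosis I, and MII oocytes (WT) rest at metaphase of meiosis II. Btg4wt and Btg4tm are MII oocytes that had been injected, when fully grown, with cRNA for Myc-tagged wild-type BTG4 or for BTG4 with 3 neighbouring phosphorylated residues changed to alanine. The oocytes' own *Btg4* was not removed in any group, but per the study injected BTG4, wild-type or mutant, seemed to lower the endogenous protein. Per the study, the GV and MII oocytes of the control group came from culture in vitro. BTG4 recruits the CCR4-NOT deadenylase to maternal mRNA. *Btg4* RNA itself was at 5792 and 6002 scaled TPM in MII, 5178 and 5510 in Btg4wt and 3725 and 4068 in Btg4tm, so the injected cRNA was not visible as a higher *Btg4* level. That level does not separate the oocytes' own RNA from cRNA, and capture of the cRNA by oligo(dT) priming was not tested. The study showed both injected proteins by immunoblot.

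Aurora kinases are serine/threonine kinases of cell division. Aurora A works at spindle poles, where TPX2 binds and activates it and Bora helps it to activate the Polo kinase PLK1. Aurora B and its germ-cell relative Aurora C share the chromosomal passenger complex, in which INCENP is the scaffold and survivin (*Birc5*) and borealin (*Cdca8*) are the targeting subunits. Haspin phosphorylates the tail of histone H3, a mark that survivin reads at centromeres. Maturing oocytes are largely silent in transcription, so their mRNA pool is set mainly by storage, tail length and decay.

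TPM are shares of a library normalised to gene length, and they were scaled here by the median of ratios. The median log2 difference of all genes was then -0.00 for MII − GV, 0.01 for Btg4tm − Btg4wt, 0.02 for Btg4wt − MII and -0.08 for Btg4tm − GV. The 14 oocyte markers were listed in all libraries at a summed 43155 to 56427 TPM. The sum hides moves of single markers in both directions. *Zp3* was at 10614 and 9459 in GV, 919 and 2425 in MII and 7849 and 7199 in Btg4tm. *Gtsf1* was at 2045 and 1712 in GV, 281 and 283 in MII and 1398 and 1291 in Btg4tm. *Oosp1* was higher in MII, at 5625 and 5554 against 2196 and 2848 in GV. Of 16 cumulus and granulosa cell markers, 8 were listed in the control tables and 9 in the injection tables, at a summed 36.9 to 49.8 TPM. *Amh*, *Foxl2*, *Has2* and *Inhba* were not among the listed genes, while *Cyp19a1* (16.7 to 25.9 TPM) and *Nr5a2* (8.88 to 20.2 TPM) were present in every library. Single markers moved with the groups in both directions. *Inha* was at 4.64 and 2.33 TPM in GV, 0 and 0.516 in MII, 1.86 and 1.05 in Btg4wt and 9.74 and 4.91 in Btg4tm. *Fshr*, listed in the injection tables only, was at 0.0582 and 0.152 in Btg4wt and 0.468 and 1.42 in Btg4tm. *Kitl* went the other way, at 2.74 and 2.27 in GV, 4.93 and 5.54 in MII, 5.81 and 4.85 in Btg4wt and 2.77 and 2.64 in Btg4tm. *Nr5a2* was at 15.2 and 20.2 in Btg4wt and 8.88 and 9.20 in Btg4tm. The summed markers were at 47.1 and 47.1 in Btg4wt and 42.3 and 36.9 in Btg4tm. The part of such cells in the differences below was not tested. Replicates correlated at Pearson's r of 0.982 to 0.987 across genes. The share of TPM on mitochondrially encoded genes moved with the groups, from 0.623% and 0.648% in GV to 2.70% and 2.60% in MII, 2.05% and 1.75% in Btg4wt and 0.762% and 1.02% in Btg4tm. Its part in the differences below was not tested, and ratios between members of one library do not depend on it. A shorter tail and fewer molecules cannot be told apart in libraries primed with oligo(dT), nor can fewer cells and less RNA per cell.

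Survivin RNA was the most abundant of the 10 in GV oocytes, at 929 ± 32.6 scaled TPM (SD, n = 2). *Plk1* at 397 ± 50.2 and *Aurka* at 370 ± 5.31 followed, and their replicates overlapped. Then came *Aurkc* at 217 ± 31.2, *Tpx2* at 182 ± 8.26, *Cdca8* at 153 ± 6.75 and *Haspin* at 100.4 ± 9.70. The lowest levels were those of *Incenp*, 31.6 ± 6.66, *Aurkb*, 29.7 ± 1.45, and *Bora*, 19.3 ± 1.95, of which the first 2 overlapped. In MII oocytes *Birc5* (411 ± 11.3) and *Tpx2* (401 ± 11.7) overlapped at the top, and *Plk1* (346 ± 11.8) and *Aurkc* (316 ± 48.6) overlapped below them. *Aurka* (188 ± 13.3) now stood under *Cdca8* (205 ± 0.818), while *Aurkb* and *Bora* stayed at the bottom.

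**Figure D1:**
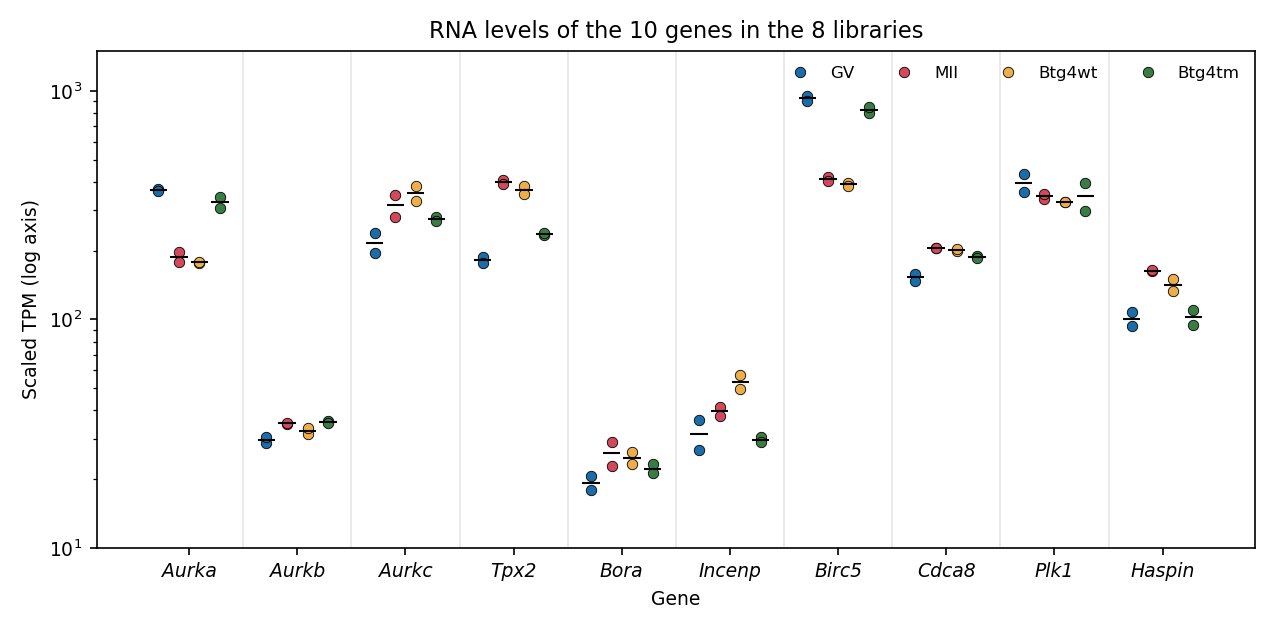
Scaled TPM of the 10 genes on a log axis, with 1 point per library, coloured by group, and a line at the mean of the 2 libraries. *Birc5* and *Aurka* sit high in GV and Btg4tm and lower in MII and Btg4wt; *Tpx2* shows the opposite order, with GV at 176 to 188 and MII at 392 to 409.

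The level of *Aurkc* carries a doubt that the other Aurora genes do not. In the GENCODE M21 annotation of GRCm38, *Aurkc* (chr7:6995300-7003091, plus strand) shared 86.5% of its 1154-base transcript, in stretches of 50 bases or more, with 10 other annotated genes, while *Aurka* (chr2:172356190-172370535, minus strand) and *Aurkb* (chr11:69045647-69051664, plus strand) shared 0%. The authors dropped reads of low mapping quality, so reads from such stretches could be lost or placed on a copy. The processed pseudogene *Gm12463* on chromosome 4 was listed at 195 and 128 scaled TPM in GV, 212 and 266 in MII, 274 and 315 in Btg4wt and 211 and 213 in Btg4tm, close to the level of *Aurkc* itself. Its MII − GV difference was 0.58 on the log2 scale, beside 0.54 for *Aurkc*, and reads from the shared stretches cannot be told apart. For *Plk1* (chr7:122159439-122169873, plus strand) the shared part was 22.3%, with *Plk-ps1*, and 7.1% of its exon bases overlapped *Gm44985* in libraries counted without strand. Smaller shared parts were found for *Birc5* (7.4%) and *Tpx2* (3.6%), and 4.5% of the exon bases of *Cdca8* (chr4:124918465-124939311, minus strand) overlapped *9930104L06Rik*. *Haspin*, a single-exon gene at chr11:73135485-73138294 on the minus strand, lies within *Itgae* without exon overlap.

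The libraries were primed on poly(A), and the letters near an mRNA's 3′ end, the polyadenylation hexamer (AATAAA or ATTAAA) and cytoplasmic polyadenylation elements (CPE, here TTTTAT or TTTTAAT), are known to steer tail length in oocytes. For that reason the 3′ UTR stretches of the members that the results turn on are shown, 30 bases each from the GENCODE M21 transcripts, sense strand, with hexamers and CPE in capitals. *Aurka* had no hexamer in its last 40 bases, and the stretch around its single CPE, 53 bases from the transcript end, is given in its place.
Aurka: ttaaaggctattTTTTATgttggagttctg
Aurkb: aaattatgaagaacaacaTTTTATAATAAA
Aurkc: tttctcTTTTATgaagtgatgttaATTAAA
Tpx2: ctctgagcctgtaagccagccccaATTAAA
Birc5: agttttcctaccacggggtaacggAATAAA

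In *Aurkb* the CPE abutted the hexamer, with 0 bases between them, and in *Aurkc* 12 bases lay between. *Tpx2* (chr2:152847964-152895321, plus strand) had 2 CPE in a 3′ UTR of 1630 bases, the nearer one 680 bases before the hexamer. *Birc5* (chr11:117849251-117855743, plus strand) had none in 424 bases. Nor was any found in *Bora* (chr14:99046222-99074540, plus strand), *Incenp* (chr19:9872296-9899551, minus strand), *Cdca8*, *Plk1* or *Haspin*. Of 10805 tested genes with such a transcript, 61.1% had at least 1 CPE, beside 4 of the 10 members, and 16.6% had one within 100 bases before a hexamer, beside 2 of the 10. A match describes the letters of one annotated transcript and is not a tested site.

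The first question was how the 10 RNAs differ between GV and MII, the start and the end of maturation. *Tpx2* rose and *Birc5* fell, and the other 8 did not pass both the adjusted p of 0.05 and the fold minimum (absolute log2 fold change over 1). Across all tested genes 12.5% were called higher and 24% lower in this comparison, so 1 of 10 in each direction is not above the background. By adjusted p alone 4 members were higher (*Tpx2*, *Haspin*, *Cdca8* and *Aurkc*) and 2 lower (*Birc5* and *Aurka*), beside 29.8% and 32.8% of all genes. GV and MII libraries did not overlap for any of the 10, as for 82.7% of all genes. The median log2 fold change of the members was 0.37, beside -0.00 for all genes.

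*Aurka* was at 374 and 366 scaled TPM in GV and at 198 and 179 in MII. Both MII libraries were thus close to 50% of the GV level. The log2 fold change was -0.97 (SE 0.10, adjusted p = 6.39e-05, limma with Benjamini-Hochberg adjustment), just inside the fold minimum. It was past that minimum without MII replicate 1 (-1.03), on TPM as deposited (-1.13) and with scaling to mitochondrially encoded genes (-3.18). Its activator *Tpx2* went the other way, from 188 and 176 scaled TPM in GV to 409 and 392 in MII. That is a 2.2-fold rise (95% CI 1.89 to 2.55; log2 1.13, adjusted p = 1.98e-05), which lay above 91.3% of all tested genes. The call for *Tpx2* rests on the scaling: its log2 fold change was 0.98 on TPM as deposited and -1.07 when libraries were scaled to mitochondrially encoded genes, where the median of all genes moved to -1.74. Relative to the median gene it was higher under each of the 4 scalings, by 0.67 to 1.14. Apart from quantile normalization, each scaling divides a library by 1 factor. That moves all genes alike except through the 1 added before log2, so this agreement was largely fixed in advance. *Bora*, the cofactor through which Aurora A activates PLK1, was at 20.7 and 17.9 scaled TPM in GV and 29.1 and 22.9 in MII, a difference of 0.40 (95% CI 0.03 to 0.77) that missed the threshold (adjusted p = 0.0557, limma) and was -1.72 with the mitochondrial scaling. *Plk1* was at 432 and 361 in GV and at 338 and 355 in MII, a difference of -0.19 (95% CI -0.52 to 0.14; adjusted p = 0.282), so levels from 0.696 to 1.10 of the GV level fit the interval under the main scaling, while scaling to mitochondrially encoded genes gave -2.40 (adjusted p = 2.17e-06, limma).

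The catalytic subunits of the passenger complex were both higher in MII under the main scaling, and neither was called. *Aurkc* was at 239 and 195 scaled TPM in GV and at 282 and 351 in MII (log2 0.54, SE 0.15, adjusted p = 0.0116, limma). *Aurkb* was at 28.6 and 30.7 in GV and 34.8 and 35.2 in MII, a difference of 0.23 (95% CI -0.03 to 0.49; adjusted p = 0.105). The subunits around them moved unequally. *Birc5* was at 952 and 906 scaled TPM in GV and 419 and 403 in MII, a fall to 0.443 of the GV level (95% CI 0.385 to 0.510; log2 -1.17, adjusted p = 1.29e-05). *Cdca8*, its partner in the targeting module, was at 158 and 148 in GV and 206 and 205 in MII (log2 0.43, adjusted p = 0.00323). The scaffold *Incenp* was at 26.9 and 36.4 in GV and 41.5 and 37.9 in MII, a difference of 0.33 (95% CI -0.03 to 0.70; adjusted p = 0.0997). *Haspin*, which writes the mark that survivin reads, was at 93.6 and 107 scaled TPM in GV and 163 and 164 in MII (log2 0.70, adjusted p = 0.00121). All the positive differences of this paragraph turned negative with scaling to mitochondrially encoded genes, from -1.92 for *Aurkb* to -1.5 for *Haspin*. Only *Aurkc* and *Haspin* then lay above the median gene, by 0.08 and 0.24. Under the main scaling *Aurkb*, *Incenp* and *Cdca8* lay above it as well, by 0.23, 0.33 and 0.43. As 1 factor per library moves all genes alike, that change came only through the 1 added before log2.

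Ratios within a library avoid the choice of scaling. *Aurka* made up 58.3% and 61.9% of the summed TPM of the 3 Aurora kinases in GV and 38.4% and 31.7% in MII. *Aurkc* took the larger part in MII, at 54.8% and 62.1%, from 37.2% and 32.9% in GV, and *Aurkb* stayed between 4.47% and 6.76% in these 4 libraries. In an alternative chosen after seeing the data, with the 5 look-alikes of *Aurkc* in both sets of tables added to it, the share of *Aurka* was 43.3% and 49.7% in GV and 26.1% and 20.5% in MII. *Aurka* was 92.9% and 92.3% of *Aurka* plus *Aurkb* in GV and 85.0% and 83.6% in MII, a measure that leaves *Aurkc* out. The summed level of the 3 kinases was 641 and 592 scaled TPM in GV and 515 and 565 in MII. The RNA of *Tpx2* per *Aurka* went from 0.502 and 0.481 in GV to 2.07 and 2.19 in MII. *Birc5* per *Cdca8*, subunits that stand side by side in the complex, went from 6.05 and 6.12 to 2.03 and 1.97. None of these ratios overlapped between GV and MII. Of other ratios formed between members, *Plk1* to *Bora* and *Birc5* to *Incenp* did not overlap either. *Aurkc* to *Aurkb* did, at 8.34 and 6.34 in GV and 8.11 and 9.96 in MII, as did *Incenp* to *Aurkc*. How often ratios of other gene pairs overlap was not counted, and 82.7% of single genes did not overlap in this comparison. An exact permutation test of 2 against 2 libraries cannot give a two-sided p below 0.333, so no p is given for the ratios.

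**Figure D2:**
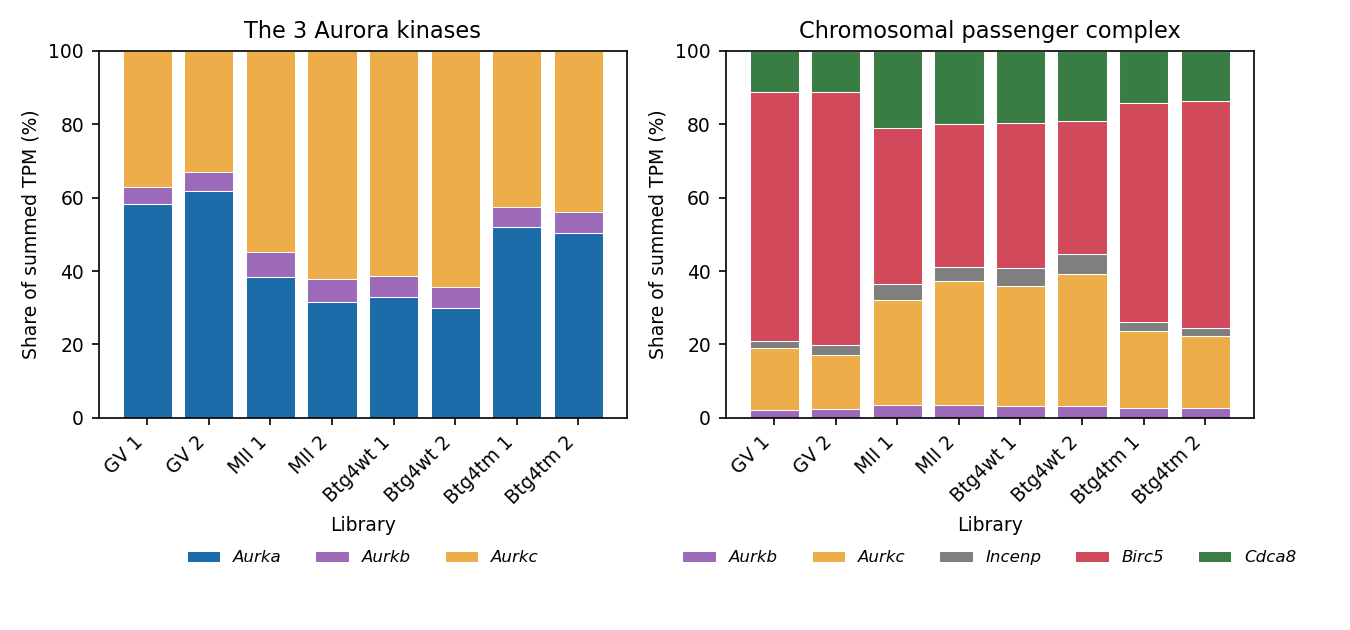
Share of each RNA in the summed TPM of the 3 Aurora kinases (left) and of the 5 passenger complex genes (right), in percent, with 1 bar per library. The share of *Aurka* is above 50% in the GV and Btg4tm libraries and under 40% in the MII and Btg4wt libraries; *Birc5* holds 59.8% to 68.9% of the complex in GV and Btg4tm and 36.2% to 42.6% in MII and Btg4wt.

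**Figure D3:**
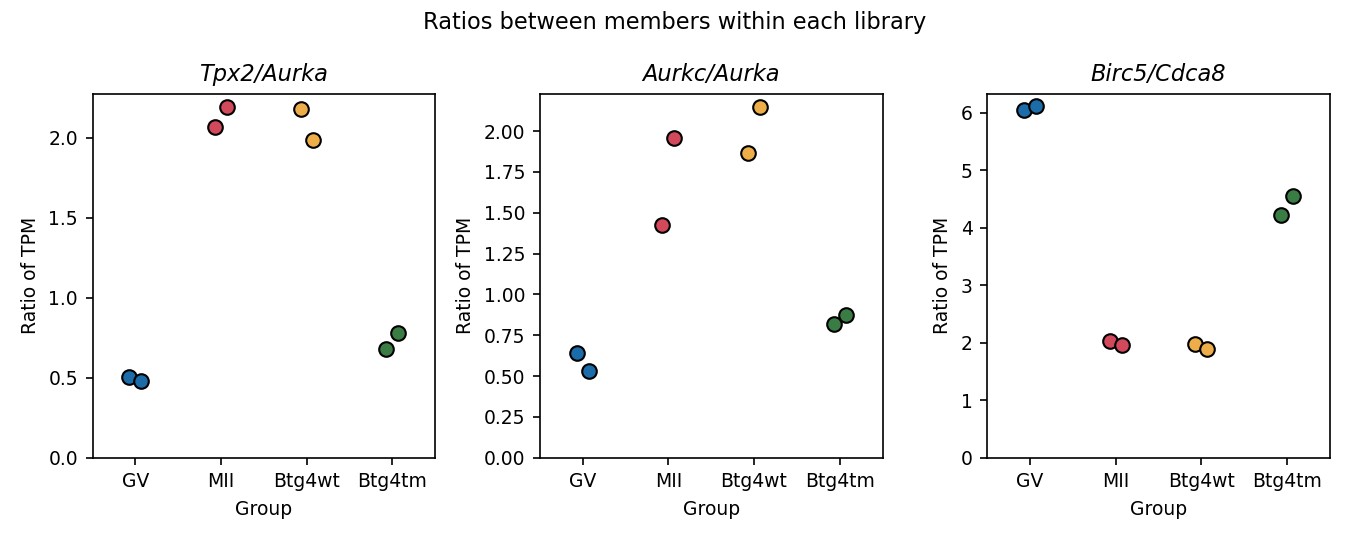
Ratios of TPM within each library for *Tpx2* to *Aurka*, *Aurkc* to *Aurka* and *Birc5* to *Cdca8*, with 1 point per library on linear axes that start at 0. *Tpx2* to *Aurka* lies between 1.98 and 2.19 in MII and Btg4wt and between 0.481 and 0.781 in GV and Btg4tm.

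The second question was how these RNAs differ between MII oocytes given mutant and wild-type BTG4. *Birc5* was called higher in Btg4tm and no member was called lower, beside 18.1% and 7.94% of all genes. By adjusted p alone, *Birc5* and *Aurka* were higher and *Incenp*, *Tpx2* and *Haspin* lower, that is 2 and 3 members beside 26.2% and 23.3% of all genes. The groups did not overlap for 9 members, *Plk1* being the exception, and for 74.3% of all genes. The median log2 difference of the members was -0.13, beside 0.01 for all genes.

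*Birc5* was at 394 and 386 scaled TPM in Btg4wt and at 798 and 849 in Btg4tm, 2.11-fold higher (95% CI 1.83 to 2.43; log2 1.08, adjusted p = 3.35e-05). With quantile normalization the difference was 0.95 and under the fold minimum. *Aurka* was at 177 and 179 in Btg4wt and at 344 and 307 in Btg4tm, a difference of 0.87 (SE 0.10, adjusted p = 0.000193, limma) that was 1.95, past the fold minimum, with scaling to mitochondrially encoded genes. Both RNAs thus lay higher with the mutant in every library, and under the main scaling *Birc5* alone passed the fold minimum. *Tpx2* was at 385 and 355 scaled TPM in Btg4wt and at 233 and 240 in Btg4tm (log2 -0.64, SE 0.09, adjusted p = 0.000666). *Incenp* showed the largest negative difference of the 10, from 49.8 and 56.9 in Btg4wt to 30.4 and 29.1 in Btg4tm (log2 -0.82, SE 0.16, adjusted p = 0.00313), and lay below all but 12.7% of the tested genes. Its value was -1.03 with quantile normalization, past the fold minimum. *Haspin* was at 151 and 133 in Btg4wt and 109 and 94.8 in Btg4tm (log2 -0.47, adjusted p = 0.0126). These negative values became 0.44, 0.24 and 0.61 with scaling to mitochondrially encoded genes, where the median gene stood at 0.88. All 3 lay below the median gene under both scalings, which 1 factor per library could hardly change.

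**Figure D4:**
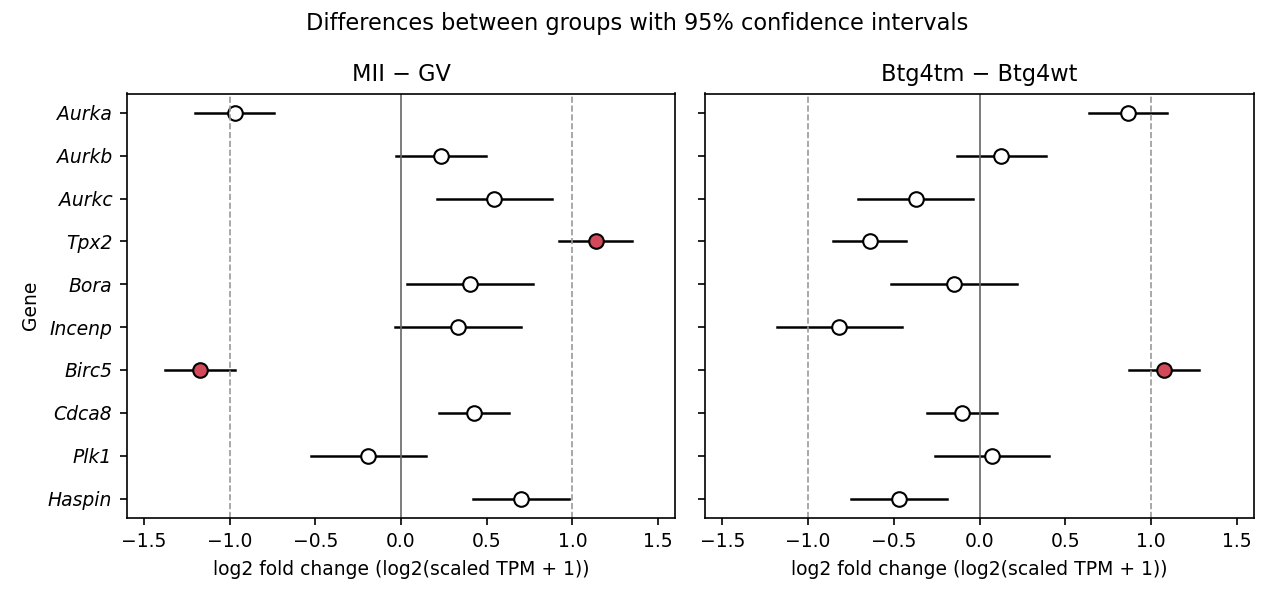
Log2 fold changes of the 10 genes with 95% confidence intervals from limma, for MII − GV (left) and Btg4tm − Btg4wt (right). Filled points passed the adjusted p and the fold minimum, shown by dashed lines; these were *Tpx2* at 1.13 and *Birc5* at -1.17 on the left, and *Birc5* at 1.08 on the right, under the main scaling (scaled to mitochondrially encoded genes, *Tpx2* on the left was at -1.07).

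The other members differed less between the injected groups. *Aurkc* was at 329 and 384 scaled TPM in Btg4wt and 281 and 269 in Btg4tm (log2 -0.37, 95% CI -0.71 to -0.04; adjusted p = 0.0656), and its look-alike *Gm12463* had -0.47. For *Aurkb* the levels were 31.5 and 33.6 against 35.8 and 35.3, a difference of 0.13 (95% CI -0.13 to 0.39; adjusted p = 0.386). *Bora*, at 23.3 and 26.3 against 23.2 and 21.3, gave -0.15 (95% CI -0.52 to 0.22; adjusted p = 0.467). Under the main scaling these intervals hold no 2-fold change, but *Aurkb* was at 1.18 (adjusted p = 0.000705, limma) with scaling to mitochondrially encoded genes, past the fold minimum. *Cdca8*, at 199 and 204 against 189 and 186, gave -0.10 (95% CI -0.30 to 0.10; adjusted p = 0.384). *Plk1* was at 328 and 325 in Btg4wt and at 395 and 299 in Btg4tm, which enclosed them, with a difference of 0.07 (95% CI -0.26 to 0.41; adjusted p = 0.706) that was -0.13 without Btg4tm replicate 1. Scaled to mitochondrially encoded genes, *Plk1* was called higher as well, at 1.16 (adjusted p = 0.00197, limma), and *Aurkc*, *Bora* and *Cdca8* were at 0.71, 0.89 and 0.98, under the fold minimum. Under that scaling the median gene stood at 0.88, and 6089 of 13968 genes were called higher. *Aurkb* and *Plk1* lay above the median gene by 0.31 and 0.28. With quantile normalization *Aurkb* and *Plk1* were lower, by -0.083 and -0.044.

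Within the injected libraries, *Aurka* held 32.9% and 29.96% of Aurora kinase RNA in Btg4wt and 52.1% and 50.2% in Btg4tm. *Aurkc* held 61.3% and 64.4% against 42.5% and 43.99%. The ratio of *Tpx2* to *Aurka* was 2.18 and 1.98 in Btg4wt and 0.680 and 0.781 in Btg4tm. For *Birc5* to *Cdca8* it was 1.98 and 1.89 against 4.23 and 4.55. In each of these measures both Btg4tm libraries lay between the GV and the MII libraries, and the Btg4wt libraries lay apart from both Btg4tm and GV.

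The control and injection tables list different genes, and the 2 comparisons across them share libraries with those above, so they are given side by side and not as separate support. Between Btg4wt and uninjected MII oocytes no member and no other gene was called (0% in each direction), while 1 member and 1655 genes (11.8%) had an unadjusted p under 0.05. That member was *Incenp*, higher by 0.41 in Btg4wt (95% CI 0.05 to 0.78; adjusted p = 0.372, limma). *Aurka* differed by -0.08 (95% CI -0.31 to 0.15), *Birc5* by -0.08 (95% CI -0.28 to 0.13) and *Tpx2* by -0.12 (95% CI -0.33 to 0.10). The groups did not overlap for 8 members, beside 44.9% of all genes. Between Btg4tm and GV no member was called either, beside 1.02% of genes called higher and 1.02% lower, and 3 members and 4147 genes (29.7%) had an unadjusted p under 0.05. *Tpx2* was higher in Btg4tm by 0.38 (95% CI 0.17 to 0.59; adjusted p = 0.0383), the 1 member past the adjusted p alone, as were 7.66% of genes in that direction. *Cdca8* was higher by 0.30 (adjusted p = 0.0675), *Aurka* lower by -0.19 (95% CI -0.42 to 0.04) and *Birc5* lower by -0.17 (95% CI -0.38 to 0.03). For 7 members, and 59.5% of all genes, the libraries did not overlap. With scaling to mitochondrially encoded genes *Tpx2* and *Cdca8* were at -0.25 and -0.33 in this comparison, and *Aurka*, *Birc5* and *Tpx2* were at 0.41, 0.42 and 0.38 in Btg4wt − MII.

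The wider pathway was read from 5 lists of 105 genes in all, of which 103 were tested. *Ajuba* was not listed, and *Ppp2cb* was listed in the control tables only, at 0.318 to 1.29 TPM. Between GV and MII 18 of the 103 were called higher and 18 lower (17.5% each, beside 12.5% and 24% of all genes), with a median log2 fold change of 0.34. Between Btg4wt and Btg4tm 12 were called higher and 9 lower in Btg4tm (11.7% and 8.74%, beside 18.1% and 7.94%), with a median of -0.30. Scaled to mitochondrially encoded genes, 0 were higher and 89 lower in MII, and 35 higher and 0 lower in Btg4tm. Of all 13968 tested genes, 7 were then higher and 11403 lower in MII, and 6089 higher and 69 lower in Btg4tm.

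For each list below, the shares of all genes to set beside the counts are 12.5% higher and 24% lower in MII. For Btg4tm they are 18.1% higher and 7.94% lower. Among 17 tested regulators of Aurora A, 3 rose and 2 fell in MII, and 1 was higher and 4 lower in Btg4tm. *Chfr*, a ubiquitin ligase of an early mitotic checkpoint, rose from 22.3 to 53.1 scaled TPM (log2 1.22, adjusted p = 0.000212). *Aurkaip1*, named for its interaction with Aurora A and also a mitochondrial ribosomal protein, fell from 153 to 11.2 in MII (log2 -3.65) and was at 7.99 in Btg4wt and 88.3 in Btg4tm (log2 3.27). *Cep192*, the centrosome scaffold that recruits Aurora A, was at 17.1 in Btg4wt and 4.49 in Btg4tm (log2 -1.72, adjusted p = 0.000148). Of 20 genes that recruit or oppose the passenger complex, 4 rose and 2 fell in MII, and 2 were higher and 2 lower in Btg4tm. *Wapl*, the cohesin release factor, rose from 70.8 to 304 (log2 2.11), and *Ppp2ca*, a catalytic subunit of the phosphatase PP2A, fell from 58.1 to 16.3 (log2 -1.77). In Btg4tm *Ppp2ca* was higher, at 62.7 against 12.2 (log2 2.29), and *Usp9x*, a deubiquitinase that acts on survivin, was lower, at 95.5 against 219 (log2 -1.20).

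Of 23 targets of Aurora B and C, 5 rose and 4 fell in MII, and 4 were higher and 1 lower in Btg4tm. The largest rise was that of the microtubule depolymerase *Kif2a*, from 23.7 to 73.0 (log2 1.6), and the largest fall that of *Ska3* of the kinetochore Ska complex, from 112 to 24.8 (log2 -2.13). *Spc24* of the Ndc80 complex was at 24.9 in Btg4wt and 135 in Btg4tm (log2 2.39), and *Prc1*, a bundler of spindle microtubules, at 257 and 117 (log2 -1.13). Of 23 genes of TPX2- and Ran-dependent spindle assembly, 2 rose and 6 fell in MII, with *Ckap2* at 79.7 and 167 (log2 1.05) and the augmin subunit *Haus7* at 74.1 and 14.7 (log2 -2.26). In Btg4tm 3 were higher and 1 lower, with *Haus1* at 25.6 and 83.5 (log2 1.67) and *Haus6*, another augmin subunit, at 22.3 and 9.72 (log2 -1.12). Of 20 genes of the Polo family and its partners, 4 rose and 4 fell in MII. *Plk4*, the kinase of centriole duplication, rose from 69.1 to 197 (log2 1.5), and *Cdk1* fell from 81.9 to 4.03 (log2 -4.07). In Btg4tm 2 were higher and 1 lower, and *Cdk1* was at 3.32 in Btg4wt and 57.9 in Btg4tm (log2 3.78).

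**Figure D5:**
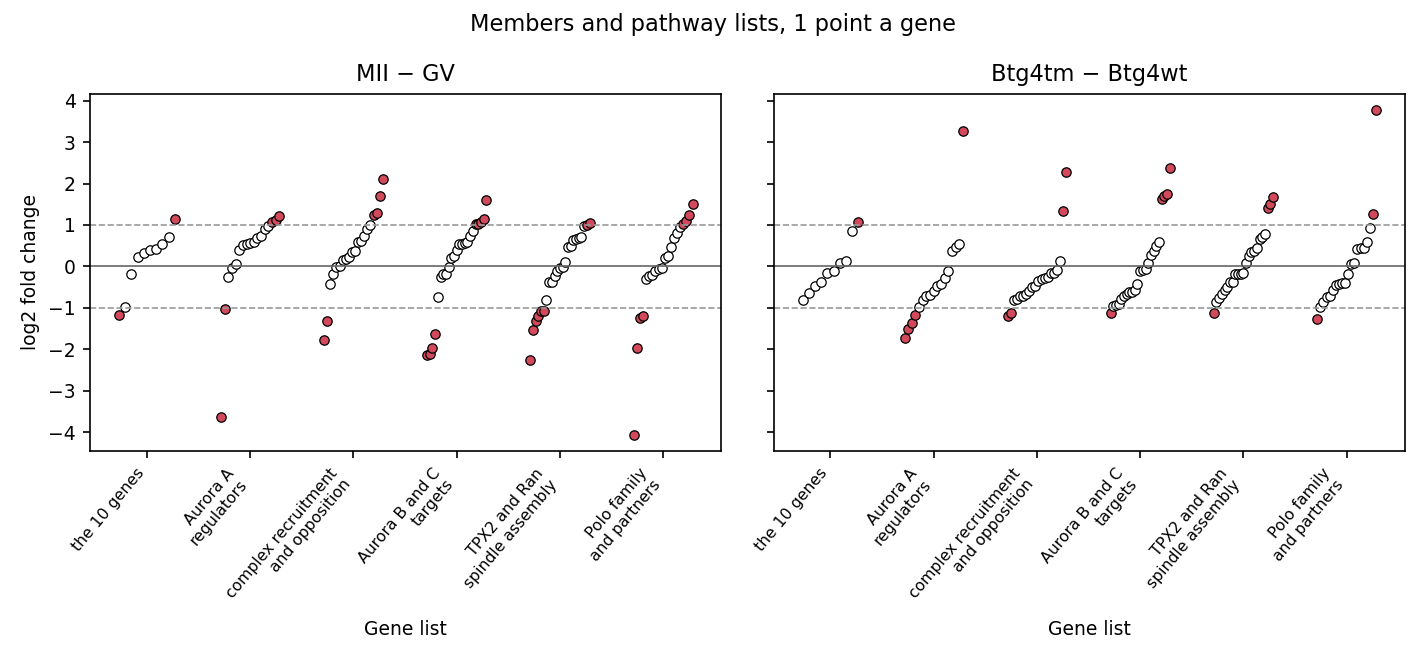
Log2 fold changes of the 10 genes and of the 5 pathway lists, 1 point per gene sorted within its list, for MII − GV (left) and Btg4tm − Btg4wt (right), with filled points for genes past the adjusted p and the fold minimum. The 10 genes lie between -1.17 and 1.13 on the left, while *Cdk1* reaches -4.07 there and 3.78 on the right. With scaling to mitochondrially encoded genes no list gene, and 7 of all 13968 tested genes, were called higher on the left.

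The genes whose log2 values ran most like those of the Aurora kinases were taken from 6881 genes whose scaled TPM averaged 10 or more, by the root mean square difference of centred values over the 8 libraries. For *Aurka* these were *Rpl34-ps1* (0.07), *Vwc2* (0.08) and *Psmd4* (0.09), the last a proteasome subunit. For *Aurkb*, which varied least of the 3, they were *Gmds* (0.05), *Mknk1* (0.06) and *Erh* (0.06). For *Aurkc* they were *Naalad2* (0.09), *Ptdss1* (0.10) and *Samd8* (0.10). Across the 8 libraries the log2 values spanned 1.08 for *Aurka*, 0.98 for *Aurkc* and 0.31 for *Aurkb*.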

How the data were processed

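Per the labels and the study's methods, oocyte RNA was reverse transcribed from oligo(dT), and the authors trimmed reads with Trim Galore 0.6.10, aligned them to GRCm38 with HISAT2 2.2.0, and counted exons without strand with featureCounts 2.0.6, dropping reads with a mapping quality under 10. The authors deposited TPM per gene symbol, 1 table per library; the gene lengths behind them were not given in the sources used here. TPM keep no depth, so no counting error can be had, and precision comes from 2 libraries in each group. The labels speak of 3 samples per group, and 2 per group were analysed here. Nothing says that libraries of a group came from separate animals, so p-values measure the spread between these libraries only.

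TPM of the 15962 genes in all tables were scaled by the median of ratios (factors 0.948 to 1.11) and transformed to log2(TPM + 1), which understates changes of low genes. The fit took 13968 genes (1 TPM or more in 2 libraries or more) over all 8 libraries, with limma 3.58.1 in R 4.3.3 (eBayes with trend) and Benjamini-Hochberg adjustment over all of them. Calls were made at an adjusted p below 0.05 with a log2 fold change beyond ±1. Named genes were the 10 members, and, for each pathway list and each of MII − GV and Btg4tm − Btg4wt, the largest called rise and fall among those averaging 10 scaled TPM or more. The members and lists were chosen with earlier results of these data known. Other scalings, pseudocounts, filters, thresholds, a replicate block, a fit of 4 libraries and leaving out each library were tried. Positions, shared stretches and 3′ UTR letters came from GENCODE M21, while the authors counted reads with a later GENCODE release for the same genome build.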

Additional observations from a re-analysis of the deposited data

How the results depend on the processing

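Of 532 alternative log2 fold changes of members, 492 kept their direction and their side of the threshold, 17 passed it newly, 2 no longer passed it and 21 changed sign. Settings that moved only a threshold, and the replicate block in this balanced design, cannot change a log2 fold change. Their agreement in direction was thus fixed in advance. With no minimum fold, new passes came at unchanged values, such as *Aurka* (-0.97), *Haspin* (0.70), *Aurkc* (0.54) and *Cdca8* (0.43) in MII − GV. With mitochondrial scaling the median of all genes moved as well, to -1.74 in MII − GV and 0.88 in Btg4tm − Btg4wt. Why the share of mitochondrially encoded genes moved with the groups was not tested, nor were the other sign changes. Scaling to mitochondrially encoded genes turned 7 members in MII − GV (*Aurkb* -1.92, *Aurkc* -1.67, *Tpx2* -1.07, *Bora* -1.72, *Incenp* -1.82, *Cdca8* -1.78, *Haspin* -1.5) and 6 in Btg4tm − Btg4wt (*Aurkc* 0.71, *Tpx2* 0.44, *Bora* 0.89, *Incenp* 0.24, *Cdca8* 0.98, *Haspin* 0.61). In Btg4wt − MII and Btg4tm − GV only some of the members were followed across the settings. Among those followed, 3 turned in Btg4wt − MII (*Aurka* 0.41, *Birc5* 0.42, *Tpx2* 0.38) and 2 in Btg4tm − GV (*Tpx2* -0.25, *Cdca8* -0.33). Sign changes of the members not followed there are not counted. In Btg4tm − Btg4wt *Aurkb* was at -0.083 and *Plk1* at -0.044 with quantile normalization, and *Plk1* at -0.13 without Btg4tm replicate 1. *Aurka* passed the fold minimum in MII − GV on TPM as deposited (-1.13) and without MII replicate 1 (-1.03). With mitochondrial scaling the new passes were *Aurka* (-3.18) and *Plk1* (-2.40) in MII − GV, and *Aurka* (1.95), *Aurkb* (1.18) and *Plk1* (1.16) in Btg4tm − Btg4wt.

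Members called in MII − GV numbered 0 higher and 2 lower on TPM as deposited, 0 and 10 with mitochondrial scaling, and 4 and 2 with no minimum fold; leaving out single libraries gave 1 to 2 lower. In Btg4tm − Btg4wt they numbered 0 higher and 1 lower with quantile normalization, 4 higher with mitochondrial scaling, and 2 and 3 with no minimum fold. In Btg4tm − GV 1 was higher with no minimum fold. Pathway genes called higher in MII − GV were 9 on TPM as deposited, 0 with mitochondrial scaling (89 lower) and 47 with no minimum fold; in Btg4tm − Btg4wt 18 were lower with quantile normalization, 35 higher and 0 lower with mitochondrial scaling, and 21 and 41 with no minimum fold.

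For all genes, the higher calls in MII − GV, 1752 beside 3351 lower, were 1145 on TPM as deposited, 3102 with quantile normalization, 4168 with no minimum fold and 7, beside 11403 lower, with mitochondrial scaling. In Btg4tm − Btg4wt the 2534 higher and 1109 lower became 1778 lower with quantile normalization, 6089 and 69 with mitochondrial scaling and 3251 lower with no minimum fold. In Btg4wt − MII 69 were higher with mitochondrial scaling and 1 lower with the replicate block. In Btg4tm − GV the 143 and 142 became 80 and 287 on TPM as deposited, 38 and 2972 with mitochondrial scaling, 1070 and 521 with no minimum fold, 75 and 33 at an adjusted p under 0.01, and 91 lower with only the 4 libraries compared; leaving out single libraries gave 84 to 202 higher and 24 to 178, the lowest in both cases without GV replicate 2. The median of all genes moved to -0.13 (MII − GV) and -0.21 (Btg4tm − GV) on TPM as deposited, to 0.27 and -0.18 in the first 2 comparisons with quantile normalization, and to -1.74, 0.88, 0.39 and -0.64 with mitochondrial scaling.

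Replicate numbers did not pair the libraries: deviations of same-numbered libraries correlated at -0.05 to 0.06. The replicate block left the members called in MII − GV at 1 and 1 and changed no member's call.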

Other observations

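Within the list of Aurora B and C targets, some genes of the kinetochore were chosen after their values were seen. The values are on the main scaling. With scaling to mitochondrially encoded genes no list gene, and 7 of all 13968 tested genes, were called higher in MII. Of the Ndc80 complex, *Spc24* and *Spc25* fell in MII, from 161 to 36.6 and from 116 to 36.6 scaled TPM (log2 -2.12 and -1.63), while *Nuf2* rose from 121 to 247 (log2 1.03) and *Ndc80* itself was at 32.2 and 59.1 (log2 0.86, under the fold minimum). With mutant BTG4, *Spc25* was higher at 126 against 39.97 (log2 1.62, adjusted p = 0.000136, limma), as was *Spc24*, while *Nuf2* was at 163 against 250 (log2 -0.61, adjusted p = 0.000717). In the Ska complex *Ska1*, like *Ska3*, fell in MII, from 87.0 to 21.3 (log2 -1.98), and was higher in Btg4tm (log2 1.75), while *Ska2* was at 13.0 and 19.2 (log2 0.54, under the fold minimum).

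The augmin complex promotes microtubule nucleation within spindles. Its subunits *Haus1*, *Haus2*, *Haus7* and *Haus8* fell in MII, by log2 values of -1.31, -1.20, -2.26 and -1.08, of which *Haus2* rested on means of 1.998 and 0.342 scaled TPM. *Haus3* was at -0.81, and *Haus4*, *Haus5* and *Haus6* were at 0.67, 0.72 and 0.46, under the fold minimum. No subunit was called higher in MII, and the difference between subunits was not tested.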
